A study of Mus musculus with 8 samples.

Results

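Molecular chaperones of the amygdala were followed across 66 genes in mice that drank aspartame and in mice that drank plain water. The genes are the heat shock proteins, the J proteins of the DNAJA, DNAJB and DNAJC families, the mitochondrial chaperonin and the 8 subunits of the cytosolic chaperonin CCT, and they were found by gene name among the 24982 genes of the deposited table. The search matched 82 names. Of these, 4 (*Dnajb8*, *Hspb9*, *Dnajc5g* and *Dnajc22*) were listed at a constant 0 and 12 varied below the minimum mean of 3 on the scale of the table, which left 66 genes of the 12861 that were tested. The scale is taken as regularized log2 (rlog), a log2 count scaled for library size in which the values of weakly counted genes are pulled toward their own mean, so that differences of such genes come out too small. Just inside the minimum was *Hspa1a*, with a mean rlog of 3.72 over the 8 libraries, and just outside were *Hspa1b* at 2.78 and *Hspb1* at 2.21.

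All mice were C57BL/6 males that were 8 weeks old at purchase and 187 to 189 days old at the end, with 18 weeks of exposure by the labels. The paper states a shorter exposure. The aspartame group (4 mice) drank water with 0.03% aspartame and the other group (4 mice) drank plain water, with no other agent named for either. Each library came from the microdissected amygdala of 1 animal and is named here by group and number, such as aspartame 1 and water 1. The study set 1 aspartame sample aside after a principal component analysis. Aspartame 2 is taken as that sample, so each comparison is given for 7 libraries (aspartame 1, 3 and 4 against water 1 to 4) and then for all 8.

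Chaperones bind proteins that are not yet, or no longer, folded. In the HSP70 system a J protein brings the unfolded protein and speeds up ATP hydrolysis by HSP70, and a nucleotide exchange factor such as HSP110 or a BAG protein resets the cycle. HSP90 then matures kinases and steroid receptors, small heat shock proteins hold unfolded proteins in solution, and the ring-shaped CCT folds actin and tubulin. Under heat or proteotoxic stress the factor HSF1 binds heat shock elements in the promoters of part of these genes, while the unfolded protein response of the endoplasmic reticulum (ER) acts on others. Neurons rely on them at the synapse too, where *Dnajc5* (cysteine string protein) guards vesicle proteins and *Dnajc6* (auxilin) helps HSP70 to strip clathrin from vesicles.

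Aspartame 2 had the lowest median correlation to the other libraries across genes (0.984, against 0.987 to 0.994 elsewhere), and aspartame 4 was next at 0.987. On the first principal component (55.8% of the variance) aspartame 1 to 4 were at -17.9, 27.6, -5.6 and -24.0. Water 1 to 4 were at -4.3, 7.0, 10.3 and 6.9, so aspartame 2 and aspartame 4 lay at opposite ends. Libraries also differed in their GC gap, here the median deviation from the gene mean in the 10% of genes richest in GC less that in the poorest 10%. It was 0.38, -0.65, 0.044 and 0.47 in aspartame 1 to 4, against 0.19, -0.13, -0.21 and -0.12 in water 1 to 4. Markers of amygdala nuclei passed the minimum in 6 of 6 cases and 0 of them were called. Among markers of neighboring tissue, the median difference between aspartame and water was 0.47 for 4 striatal markers (0 called) and 0.39 for 4 markers of hippocampus and cortex (*Cux2* called) in the 7 libraries. Of 5 oligodendrocyte markers, *Mbp* was called, and the log2 of their summed level was 12.61 to 13.42 in aspartame 1, 3 and 4, with 12.48 in aspartame 2, against 12.45 to 12.85 in water. Of the other lists, 1 of 7 neuronal markers (*Rbfox3*) and 1 of 3 oligodendrocyte precursor markers (*Cspg4*) were called higher, 0 of the astrocyte, microglial, endothelial and choroid plexus markers were called, and the 4 hemoglobin genes were listed at 0. The 3 precursor markers had a median difference of 0.040. Their summed level was 9.060 to 9.169 in aspartame 1, 3 and 4, with 9.24 in aspartame 2, against 9.174 to 9.204 in water. Choroid plexus markers summed to 7.54 to 7.96 with aspartame, against 7.36 to 10.47 in water. The part of these markers in the chaperone results was not tested.

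The chaperones were abundant genes. Levels between genes are compared here per length, as rlog minus log2 of the longest transcript in kb, and this level had a median of 6.31 over the 66 genes, against 4.93 over all genes tested. *Hsp90ab1* (cytosolic HSP90 beta) led with 11.1, above 99.95% of the genes tested. *Hspa8*, the constitutive HSC70, followed with 10.6, *Hsp90aa1* (HSP90 alpha) with 10.2 and *Hsp90b1* (the ER form, GRP94) with 9.57. The best expressed J protein was *Dnajc7*, which connects HSP70 with HSP90, at 8.75, and the CCT subunits lay within a narrow band from 6.58 (*Cct3*) to 8.23 (*Cct8*). At the low end were *Dnajc25* at 1.97, *Hspa12b* at 2.11 and *Hspa1a*, the stress-inducible HSP70, at 2.15, a level per length that only 6.88% of genes tested fell below. The reads of *Hspa1a* and *Hspa1b* cannot be well told apart, because the genes are near-identical copies. *Hspe1*, *Hspd1*, *Tcp1*, *Cct3*, *Dnaja1*, *Dnajc19* and *Hspa9* have between 1 and 6 annotated pseudogene copies that may share reads with them.

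**Figure D1:**
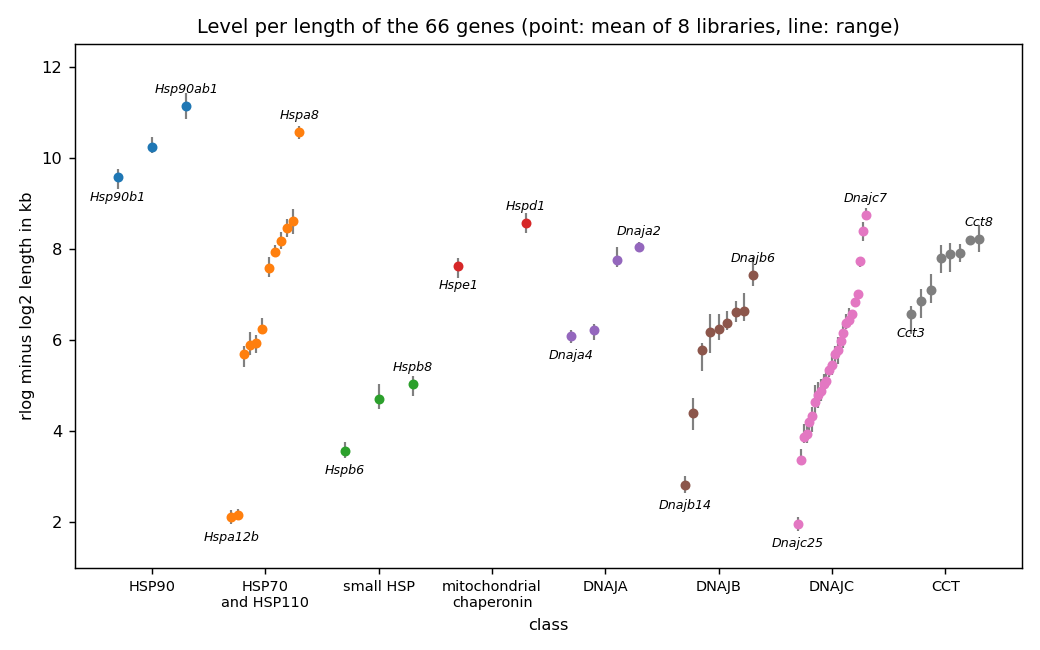
Level per length (rlog minus log2 of the longest transcript in kb) of the 66 genes by class. Points are means of the 8 libraries and lines run from the lowest to the highest library, and *Hsp90ab1* at 11.1 and *Hspa8* at 10.6 stand at the top, with *Dnajc25* at 1.97 at the bottom.

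Promoters are shown for 4 genes with an exact match to a stress element searched here, 0 of which were called in the comparison. They are also shown for *Dnajb11* and *Tcp1*, 2 of the 4 genes that were called. RefSeq windows on GRCm38.p6 run from 250 bases before to 50 after the start of a gene and were found for 54 of the 66 genes. The heat shock element of 2 inverted units (GAANNTTC or TTCNNGAA, each its own reverse complement) was present in 15 of the 54 (27.8%), against 17.0% of 27025 genes. The same element with a further unit at the same spacing, which contains the shorter form, was present in *Dnajb6*, *Hspd1*, *Hspe1* and *Hsph1* (7.41%, against 0.662% of all genes). The ER stress element (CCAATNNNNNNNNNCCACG, either strand, which contains a CCAAT box) was present in *Hspa5*, *Hsp90b1* and *Dnajc3* (5.56%, against 0.137%), and the CCAAT box itself, either strand, in 42.6%, against 41.1%. *Hspd1* and *Hspe1*, the subunits of the mitochondrial chaperonin, are read in opposite directions from a common stretch of chromosome 1. The windows of *Hspe1* (chr1:55087898-55088197, plus strand) and *Hsph1* (chr5:149636287-149636586, minus strand) have the 2-unit heat shock element in capitals, and the run of capitals in *Hspe1* joins 3 overlapping matches.
Hspe1: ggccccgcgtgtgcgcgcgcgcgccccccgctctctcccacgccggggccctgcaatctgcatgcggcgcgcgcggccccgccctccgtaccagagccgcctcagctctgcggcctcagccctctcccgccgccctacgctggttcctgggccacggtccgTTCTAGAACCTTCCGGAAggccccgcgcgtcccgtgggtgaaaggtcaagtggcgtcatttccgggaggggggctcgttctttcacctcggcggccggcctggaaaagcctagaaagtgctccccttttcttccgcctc
Hsph1: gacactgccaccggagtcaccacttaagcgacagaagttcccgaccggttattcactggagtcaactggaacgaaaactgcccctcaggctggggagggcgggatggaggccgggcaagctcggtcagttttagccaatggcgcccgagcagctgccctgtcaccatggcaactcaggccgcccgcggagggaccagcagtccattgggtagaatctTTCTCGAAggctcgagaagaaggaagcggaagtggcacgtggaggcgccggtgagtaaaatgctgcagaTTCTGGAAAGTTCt
In *Hspa5* (chr2:34771840-34772139, plus strand) and *Hsp90b1* (chr10:86705395-86705694, minus strand), the main HSP70 and HSP90 of the ER, capitals mark exact matches to the ER stress element. There is 1 in *Hspa5* and there are 2 in *Hsp90b1*, and inexact copies were not counted.
Hspa5: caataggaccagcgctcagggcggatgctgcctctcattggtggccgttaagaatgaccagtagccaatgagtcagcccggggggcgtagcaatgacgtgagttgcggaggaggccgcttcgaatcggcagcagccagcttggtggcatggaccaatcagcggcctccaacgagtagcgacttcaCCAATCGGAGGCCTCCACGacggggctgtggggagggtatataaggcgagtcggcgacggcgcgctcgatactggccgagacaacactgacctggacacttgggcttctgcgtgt
Hsp90b1: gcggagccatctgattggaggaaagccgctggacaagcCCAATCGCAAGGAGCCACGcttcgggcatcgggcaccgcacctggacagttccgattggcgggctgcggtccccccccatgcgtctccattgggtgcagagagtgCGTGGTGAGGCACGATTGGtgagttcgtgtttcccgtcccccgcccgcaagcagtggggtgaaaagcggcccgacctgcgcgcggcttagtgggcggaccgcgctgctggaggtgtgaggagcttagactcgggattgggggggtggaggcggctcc
*Dnajb11* (chr16:22857595-22857894, plus strand) and *Tcp1* (chr17:12916079-12916378, plus strand), whose RNA differed below, hold no exact match to the letters of either stress element given above. Other forms of these elements were not searched, so the 2 windows may hold them. Capitals mark their 5 and 1 CCAAT boxes.
Dnajb11: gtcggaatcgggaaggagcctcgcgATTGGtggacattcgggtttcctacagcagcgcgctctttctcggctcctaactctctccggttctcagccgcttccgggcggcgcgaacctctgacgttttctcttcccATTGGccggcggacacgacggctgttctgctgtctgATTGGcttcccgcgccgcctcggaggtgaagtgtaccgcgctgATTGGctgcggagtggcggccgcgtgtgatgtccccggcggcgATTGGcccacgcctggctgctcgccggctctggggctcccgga
Tcp1: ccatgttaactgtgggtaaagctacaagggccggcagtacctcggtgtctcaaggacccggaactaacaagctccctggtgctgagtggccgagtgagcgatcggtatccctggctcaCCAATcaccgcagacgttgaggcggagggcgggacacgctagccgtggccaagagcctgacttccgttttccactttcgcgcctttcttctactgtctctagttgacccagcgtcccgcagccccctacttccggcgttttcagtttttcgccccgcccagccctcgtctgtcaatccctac

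The question of the comparison was which genes of the amygdala differ after aspartame. In the 7 libraries 4 of the 66 chaperone genes fell with aspartame, and 0 rose. The 4 were *Dnajb11*, a J protein of the ER, *Tcp1* and *Cct4*, subunits of CCT, and *Dnajc19*, a J protein of the mitochondrial import motor. Called here means an adjusted p under 0.05 from limma, with Benjamini-Hochberg adjustment over the 12861 genes. The 4 genes were 6.06% of the set, while 8.83% of all genes were called in either direction and 2.72% were called lower. At an unadjusted p under 0.05 the set had 17 genes, or 25.8%, against 27.1% of all genes, and the aspartame and water libraries did not overlap for 14 genes (13 lower and 1 higher), or 21.2%, against 23.0%. Over both directions the share of chaperone genes was no larger than that of all genes in each of these counts. By direction, 19.7% of the set lay without overlap below water and 1.52% above it, against 12.0% and 10.9% of all genes. Of their differences 47 were negative and 19 positive, with a median of -0.080, against -0.0043 for all genes. The p-values measure the spread between these animals only, and in bulk tissue fewer cells of a type and less RNA per cell cannot be told apart.

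With all 8 libraries limma called 0 of the 66 genes, as it called 0 of all 12861 (0%). At an unadjusted p under 0.05 there were 3 (*Cct7*, *Dnajb11* and *Dnajb1*), or 4.55%, against 4.30% of all genes. The groups did not overlap for *Dnajb11*, *Dnajb1* and *Dnajc5*, all lower with aspartame, or 4.55%, against 3.37% in either direction and 2.37% lower. The median difference was then -0.037, against 0.0033 for all genes. Aspartame 2 lay above every water library for 31 of the 66 genes and below every one for 19, while over all genes these counts were 4443 and 4544 of 12861. When the smooth trend of each of the 7 libraries with GC content and transcript length was removed, 0 of the 66 genes were called, against 2.00% of all genes with a GC value, and 35 differences were negative and 31 positive.

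**Figure D2:**
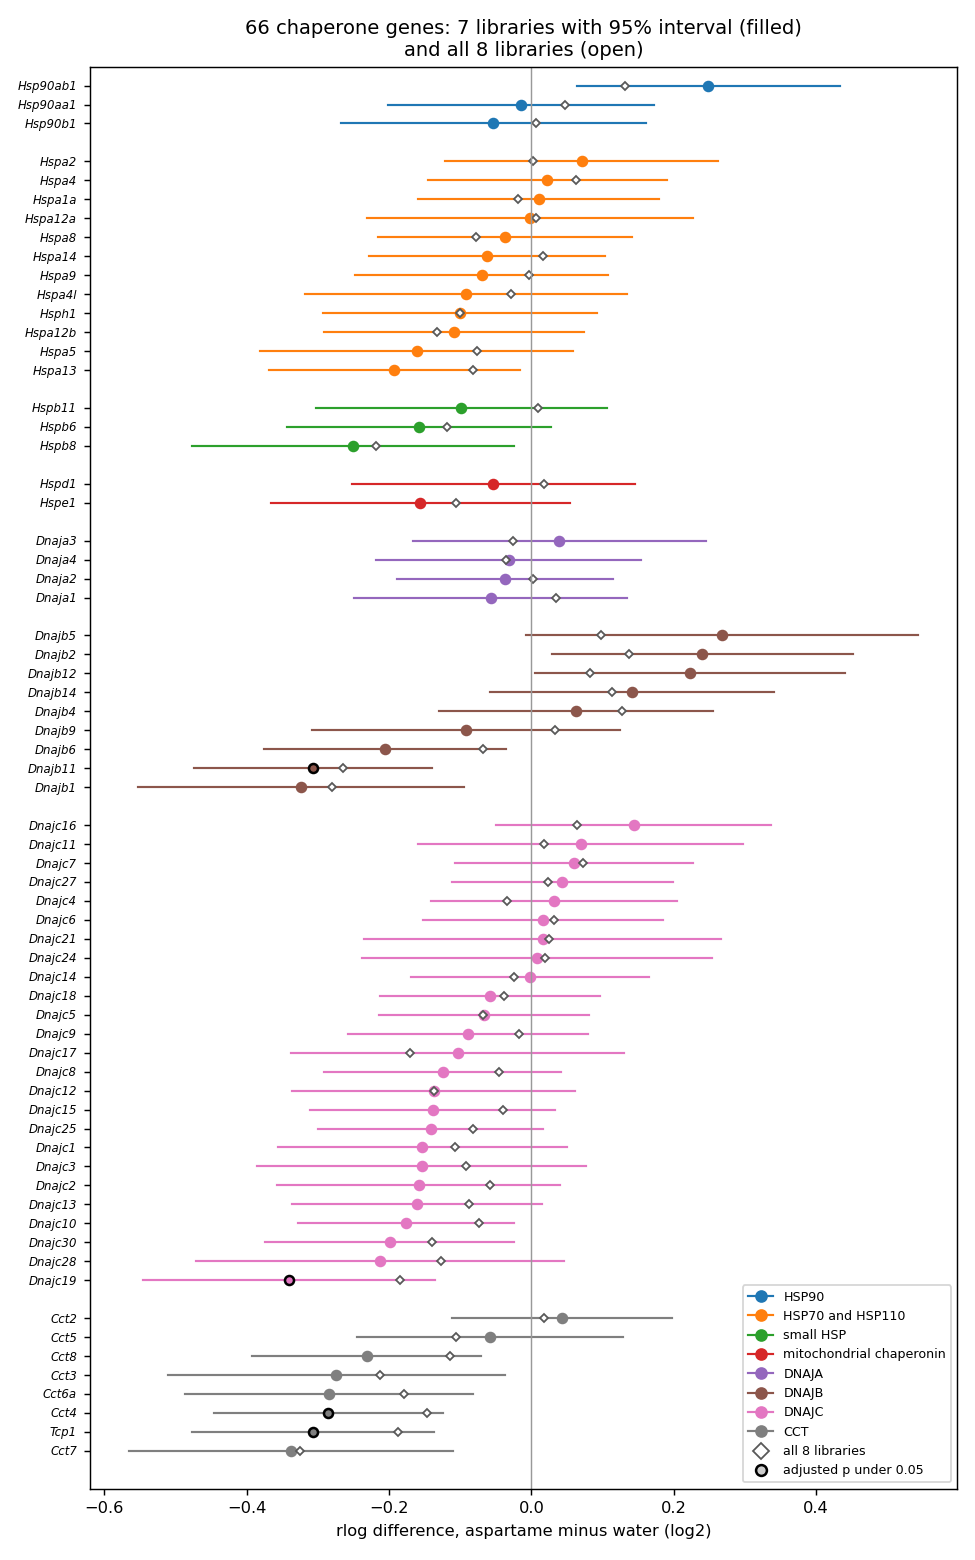
Difference in rlog, aspartame minus water, of each of the 66 genes, grouped by class. Filled points with 95% intervals are the 7 libraries, open diamonds all 8, and black rings the 4 genes with an adjusted p under 0.05, all left of 0. The positive difference of *Hsp90ab1* turned negative under quantile normalization and was 0.29 with the GC and length trend removed.

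Of the 8 CCT subunits, 7 had a negative difference in the 7 libraries, 6 of them at an unadjusted p under 0.05, and *Tcp1* and *Cct4* were called. These are 87.5% negative, 75.0% at that p and 25.0% called, against 50.9%, 27.1% and 8.83% of all genes. *Tcp1*, the alpha subunit (chromosome 17 from 12915701 to 12925067), was at 9.39, 9.85, 9.47 and 9.24 in aspartame 1 to 4, against 9.63, 9.63, 9.74 and 9.70 in water 1 to 4. Aspartame 1, 3 and 4 lay below every water library and aspartame 2 lay above them all. Its mean was 9.37 ± 0.12 (SD, n = 3) with aspartame and 9.68 ± 0.053 (SD, n = 4) in water, a difference of -0.31 (SE 0.078, adjusted p = 0.035 by limma), or 0.808-fold. *Cct4*, the delta subunit (chromosome 11 from 22990519 to 23003780), had the same order. It was at 8.22, 8.76, 8.26 and 8.13 in aspartame 1 to 4, against 8.43, 8.46, 8.56 and 8.50 in water 1 to 4. Its difference was -0.29 (SE 0.074, adjusted p = 0.037). With all 8 libraries the differences were -0.19 for *Tcp1* and -0.15 for *Cct4* (adjusted p = 0.90 and 0.91). With the GC and length trend removed from the 7 they were -0.18 and -0.15 (adjusted p = 0.12 and 0.17).

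*Cct7*, the eta subunit, had the largest negative difference of the 8 subunits. It was at 8.86, 8.68, 8.60 and 8.43 in aspartame 1 to 4, against 9.08, 8.84, 8.92 and 9.03 in water 1 to 4. Aspartame 1 overlapped with water 2, and the other aspartame libraries, aspartame 2 among them, were below all of water. The difference was -0.34 in the 7 libraries (95% interval -0.57 to -0.11, adjusted p = 0.064) and -0.33 in all 8 (adjusted p = 0.90), and neither passed. *Cct8* (-0.23, adjusted p = 0.071), *Cct6a* (-0.28, adjusted p = 0.077) and *Cct3* (-0.27, adjusted p = 0.13) had values on the same side, whereas *Cct5* (-0.06) and *Cct2* (0.04, 95% interval -0.11 to 0.20) lay near 0. With the GC and length trend removed *Cct8* was at -0.07 (adjusted p = 0.54), and *Cct2* was at 0.18 (95% interval 0.06 to 0.31, unadjusted p = 0.0082 and adjusted p = 0.11 by limma). In that fit *Cct7* was at -0.26, *Cct6a* at -0.18 and *Cct3* at -0.20 (adjusted p = 0.18, 0.22 and 0.27), and *Cct5* was at 0.04. Of the 8 subunits 5, *Cct2* among them, then had an unadjusted p under 0.05 (62.5%, against 21.0% of all genes). The deviation from the water mean, as the median of the 8 subunits, was -0.14, 0.056, -0.19 and -0.39 in aspartame 1 to 4, against 0.028, -0.080, 0.024 and 0.036 in water 1 to 4. The median difference of the subunits was -0.28 in the 7 libraries and -0.16 in all 8 libraries, and also -0.16 in the 7 with the GC and length trend removed, where 0 were called.

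**Figure D3:**
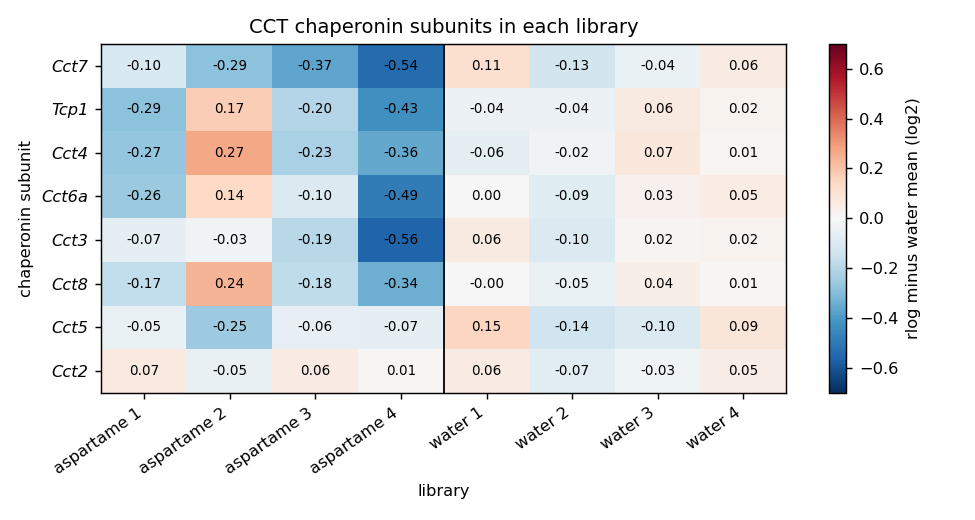
Each of the 8 CCT subunits in each library, as rlog minus the mean of the 4 water libraries, ordered by their difference in the 7 libraries. Blue cells are below and red cells above the water mean, and aspartame 2 is red for *Tcp1*, *Cct4*, *Cct6a* and *Cct8*, where aspartame 1, 3 and 4 are blue.

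Beside CCT stood a list of 11 prefoldin and chaperonin cofactor genes, all of which were tested. Of these 1 fell, or 9.09%, against 8.83% of all genes called. This was *Vbp1*, prefoldin subunit 3, which passes unfolded actin and tubulin to CCT. It was at 7.78, 8.31, 7.61 and 7.49 in aspartame 1 to 4, against 7.87, 7.98, 7.95 and 7.93 in water 1 to 4, again with aspartame 2 above all water libraries. The difference was -0.30 (adjusted p = 0.047) in the 7 libraries, -0.13 (adjusted p = 0.92) in all 8 and -0.068 (adjusted p = 0.61) with the GC and length trend removed. The list had a median difference of -0.13, with 9 of 11 values negative (81.8%, against 50.9% of all genes), and with the GC and length trend removed 7 of 11 were negative.

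Among the 9 DNAJB genes *Dnajb11* fell (11.1%, against 8.83% of all genes called), and it was the 1 called member with all 4 aspartame libraries below water. Its product (ERdj3) brings unfolded proteins to the HSP70 of the ER. On chromosome 16 from 22857845 to 22879634, it was at 7.81, 7.94, 7.78 and 7.72 in aspartame 1 to 4, against 8.11, 8.01, 8.18 and 8.02 in water 1 to 4. Aspartame 2 was the highest of its group and still under the lowest water library. The mean was 7.77 ± 0.044 (SD, n = 3) with aspartame and 8.08 ± 0.083 (SD, n = 4) in water, a difference of -0.31 (SE 0.077, adjusted p = 0.034 by limma), or 0.808-fold. With all 8 libraries it was -0.27 (95% interval -0.46 to -0.07, unadjusted p = 0.011 and adjusted p = 0.90 by limma), and with the GC and length trend removed it was -0.25 (adjusted p = 0.068).

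The partners of *Dnajb11* in the ER were not called. *Hspa5*, the ER HSP70 also known as BiP, was at 10.41, 10.70, 10.47 and 10.20 in aspartame 1 to 4, against 10.50, 10.41, 10.75 and 10.41 in water 1 to 4, with overlapping groups and a difference of -0.16 (95% interval -0.38 to 0.06). *Hsp90b1* differed by -0.05 (95% interval -0.27 to 0.16), and *Hspa13*, a further ER HSP70, by -0.19 (adjusted p = 0.15). *Hspa5* and *Hsp90b1* are the genes shown above with an exact match to the ER stress element letters, the only form searched. Of the 16 genes of an ER folding list, 1 fell, the unfolded protein response factor *Xbp1*, and 0 rose (6.25% called, against 8.83% of all genes). *Xbp1* was at 7.97, 8.22, 7.87 and 7.61 in aspartame 1 to 4, against 8.18, 8.16, 8.39 and 8.17 in water 1 to 4, so that aspartame 2 fell within the range of water. Its difference was -0.41 (adjusted p = 0.030) in the 7 libraries and -0.31 (adjusted p = 0.90) in all 8, and -0.40 (adjusted p = 0.061) with the GC and length trend removed.

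*Dnajb1*, the stress-inducible HSP40 of the cytosol, was below water in each aspartame library and did not pass. It was at 7.31, 7.36, 6.90 and 7.33 in aspartame 1 to 4, against 7.52, 7.49, 7.49 and 7.51 in water 1 to 4. Aspartame 3 lay far under the rest, and the water libraries lay within a narrow range. The difference was -0.32 (SE 0.11, adjusted p = 0.075) in the 7 libraries, -0.28 (unadjusted p = 0.028 and adjusted p = 0.90 by limma) in all 8 and -0.36 (adjusted p = 0.061) with the GC and length trend removed. On the other side of 0 were *Dnajb5* (0.27, the largest positive difference of the 66 genes, adjusted p = 0.20), *Dnajb2* (0.24, adjusted p = 0.14), a J protein abundant in neurons, and *Dnajb12* (0.22, adjusted p = 0.18) of the ER membrane. For all 3 of these aspartame 2 was below every water library, at -0.41 to -0.17 from the water mean. With all 8 libraries the differences were 0.10 for *Dnajb5*, 0.14 for *Dnajb2* and 0.08 for *Dnajb12*, and with the GC and length trend removed from the 7 they were 0.09, 0.03 and 0.12.

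**Figure D4:**
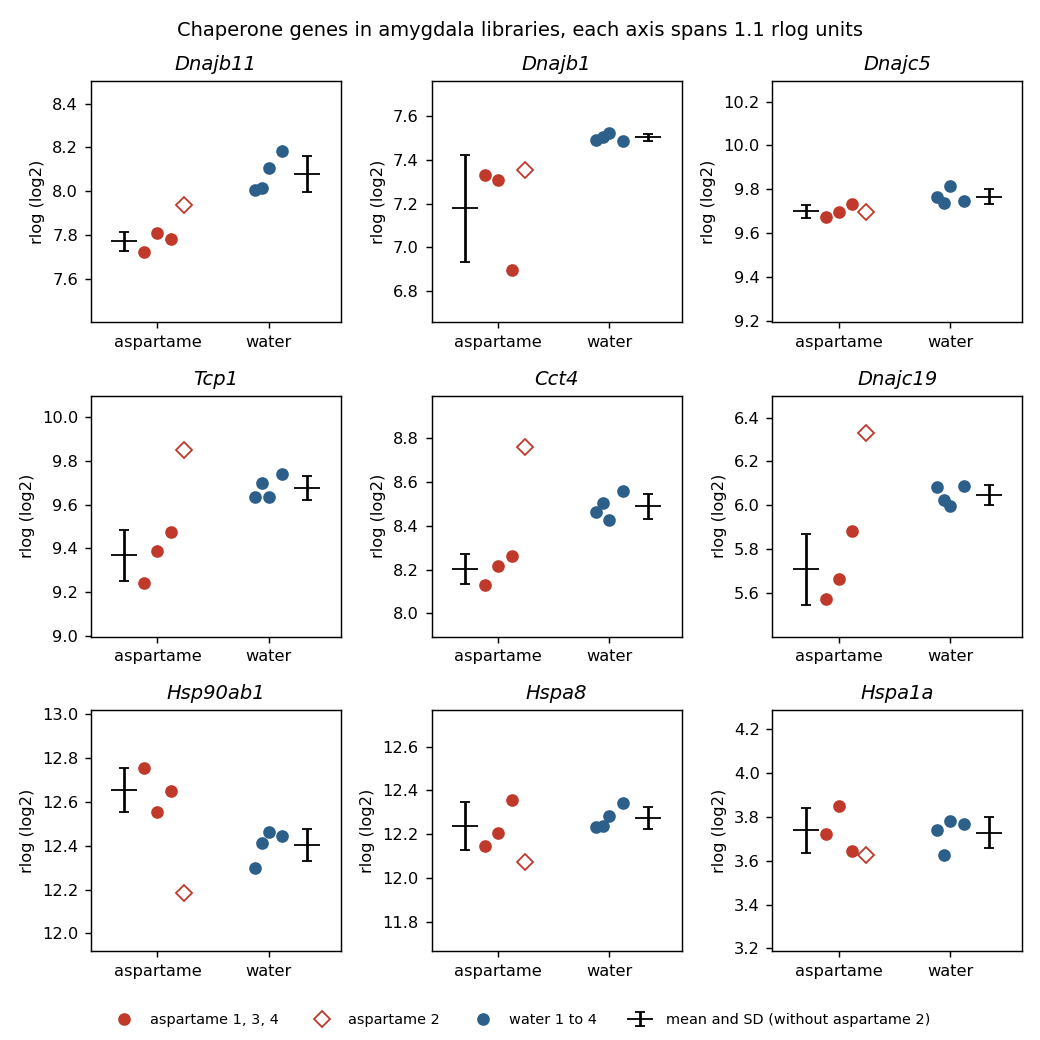
The rlog of 9 chaperone genes in each library, aspartame on the left and water on the right, with open diamonds for aspartame 2 and with mean and SD of aspartame 1, 3 and 4 and of water 1 to 4. Each axis spans 1.1 units, and aspartame 2 is above all of water for *Tcp1*, *Cct4* and *Dnajc19* and below it for *Dnajb11*, *Dnajb1* and *Dnajc5*. *Hsp90ab1*, plotted as deposited, has a negative difference under quantile normalization and one of 0.29 with the GC and length trend removed.

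Of the 25 DNAJC genes, 1 fell (4.00%, against 8.83% of all genes called) and differences ran to 0.14 (*Dnajc16*). At an unadjusted p under 0.05 there were 3 (12.0%, against 27.1% of all genes). The gene that fell was *Dnajc19* (chromosome 3 from 34056020 to 34081321), which had the largest negative difference of the set. Its product works with the HSP70 of the import motor at the inner mitochondrial membrane. It was at 5.67, 6.33, 5.88 and 5.57 in aspartame 1 to 4, against 6.00, 6.08, 6.09 and 6.02 in water 1 to 4. Aspartame 1, 3 and 4 were under all water libraries and aspartame 2 was over them. The difference was -0.34 (SE 0.094, adjusted p = 0.045), or 0.79-fold, and it was -0.19 (adjusted p = 0.90) with all 8 libraries and -0.16 (adjusted p = 0.25) with the GC and length trend removed. *Hspa9* (mortalin), the mitochondrial HSP70 that it serves, differed by -0.07 (95% interval -0.25 to 0.11), *Hspd1* (HSP60) by -0.05 and *Hspe1* (HSP10) by -0.16 (adjusted p = 0.32), all with overlapping groups. With the trend removed *Hspe1* was at 0.06 (adjusted p = 0.71). Of 9 further mitochondrial chaperones and proteases 0 were called, against 8.83% of all genes. At an unadjusted p under 0.05 there were 3 (33.3%, against 27.1% of all genes), among them *Clpx* at -0.28 with an adjusted p = 0.051.

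The synaptic members did not pass the test. *Dnajc5* was at 9.69, 9.69, 9.73 and 9.67 in aspartame 1 to 4, against 9.82, 9.77, 9.75 and 9.74 in water 1 to 4. Every aspartame library was under every water library, and the difference was -0.07 (SE 0.068, 95% interval -0.21 to 0.08, adjusted p = 0.56). With the GC and length trend removed the difference of *Dnajc5* was -0.13 (95% interval -0.26 to -0.0077, unadjusted p = 0.040 and adjusted p = 0.21 by limma). *Dnajc6* was at 10.02, 10.21, 10.17 and 10.24 in aspartame 1 to 4, against 10.13, 10.05, 10.14 and 10.17 in water 1 to 4, and its interval of -0.15 to 0.18 bounds the difference. The 4 tested genes of a list of other J proteins had 0 calls (0 at an unadjusted p under 0.05 as well), against 8.83% and 27.1% of all genes.

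The 4 DNAJA genes, general J proteins of the cytosol and mitochondria, had 0 calls (0 at an unadjusted p under 0.05 as well), with differences of -0.06 for *Dnaja1* (95% interval -0.25 to 0.13) and -0.04 for *Dnaja2* (95% interval -0.19 to 0.11). The HSP70 class (12 genes with HSP110) and the HSP90 class (3 genes) had 0 calls, with 1 gene each at an unadjusted p under 0.05 (8.33% and 33.3%). Over all genes 8.83% were called and 27.1% had such an unadjusted p. *Hspa8* was at 12.21, 12.07, 12.36 and 12.14 in aspartame 1 to 4, against 12.28, 12.23, 12.34 and 12.24 in water 1 to 4, a difference of -0.04 (95% interval -0.22 to 0.14). *Hsp90ab1*, the most abundant member, was at 12.55, 12.18, 12.65 and 12.75 in aspartame 1 to 4, against 12.46, 12.30, 12.44 and 12.41 in water 1 to 4. It was the 1 member with aspartame 1, 3 and 4 above all of water, and aspartame 2 was below all of water. Its difference was 0.25 (adjusted p = 0.086) in the 7 libraries and 0.13 (adjusted p = 0.91) in all 8, and under quantile normalization it was -0.067 (adjusted p = 0.61). With the GC and length trend removed from the 7 it was 0.29 (95% interval 0.14 to 0.44, unadjusted p = 0.0016 and adjusted p = 0.059 by limma). *Hsp90aa1*, the inducible form, differed by -0.01 (95% interval -0.20 to 0.17).

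A list of 11 BAG proteins and nucleotide exchange factors of HSP70 gave 1 riser and 1 faller, or 18.2%, against the 8.83% of all genes. *Bag6*, which escorts membrane proteins to the ER, was at 8.62, 7.54, 8.32 and 8.77 in aspartame 1 to 4, against 8.27, 8.00, 7.87 and 7.96 in water 1 to 4. *Bag1* was at 8.25, 8.72, 8.33 and 8.02 in aspartame 1 to 4, against 8.53, 8.60, 8.61 and 8.49 in water 1 to 4. In both genes aspartame 2 lay on the other side of water from aspartame 1, 3 and 4. The differences were 0.54 for *Bag6* (adjusted p = 0.022) and -0.36 for *Bag1* (adjusted p = 0.030) in the 7 libraries, and 0.28 and -0.23 with all 8 (adjusted p = 0.90 for each). With the GC and length trend removed they were 0.24 (adjusted p = 0.086) and -0.37 (adjusted p = 0.076). HSP110 (*Hsph1*), an exchange factor within the set, differed by -0.10 (95% interval -0.29 to 0.09). Of 21 listed co-chaperones of HSP90, 0 were called, against 8.83% of all genes, with a median difference of 0.044. At an unadjusted p under 0.05 there were 3 of them (14.3%, against 27.1% of all genes).

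HSF1 targets are the genes that heat stress induces in many cells. Of 16 listed targets 14 were tested, among them 10 members of the set, and 1 rose (*Cryab*) and 0 fell, or 7.14%, against the 8.83% of all genes. *Hspa1a*, a strongly inducible one, was at 3.85, 3.62, 3.64 and 3.72 in aspartame 1 to 4, against 3.78, 3.74, 3.77 and 3.62 in water 1 to 4. The groups overlapped, and the difference of 0.01 had a 95% interval of -0.16 to 0.18 on a scale that shrinks differences of such weakly expressed genes. With the GC and length trend removed the difference of *Hspa1a* was -0.24 (95% interval -0.42 to -0.06, unadjusted p = 0.013 and adjusted p = 0.13 by limma), which lies outside the first interval. The deposited values of *Hspa1a* ran only from 3.62 to 3.85. The trend was fitted over all genes with a GC value, and whether it overcorrects so weakly expressed a gene was not tested. This difference therefore cannot be read as a fall of *Hspa1a*. The median difference of the 14 was -0.055 in the 7 libraries, -0.024 in all 8 and 0.0096 in the 7 with the trend removed. Small heat shock proteins within the set, *Hspb8* (-0.25, adjusted p = 0.15) and *Hspb6* (-0.16, adjusted p = 0.26), did not pass. The 15 members with a 2-unit heat shock element had 0 calls and a median difference of -0.058, against -0.092 for the members with a window and no such element. The 3 with an exact match to the ER stress element letters had 0 calls. At the 8.83% of all genes called, lists this short can hold 0 calls, so these counts say little about the elements.

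*Cryab*, the small heat shock protein alpha-B-crystallin, which oligodendrocytes make in large amounts, was at 7.73, 6.51, 7.37 and 7.35 in aspartame 1 to 4, against 7.19, 7.11, 6.93 and 7.03 in water 1 to 4. Its difference was 0.42 (SE 0.11, adjusted p = 0.037) in the 7 libraries, 0.17 (adjusted p = 0.92) in all 8 and 0.42 (adjusted p = 0.040) with the GC and length trend removed, where it was the 1 partner gene called. Aspartame 2 was below every water library for this gene and had an oligodendrocyte marker sum of 12.48, with 12.61 to 13.42 in the other aspartame libraries and 12.45 to 12.85 in water, and the part of these cells in the result was not tested. Among 4 tested genes around HSF1, *Hsbp1*, a small protein that binds HSF1, fell (1 of 4, or 25.0%, against 8.83% of all genes called). It was at 9.32, 9.71, 9.34 and 9.30 in aspartame 1 to 4, against 9.64, 9.67, 9.76 and 9.64 in water 1 to 4, a difference of -0.36 (SE 0.069, adjusted p = 0.014) in the 7 libraries and of -0.26 (adjusted p = 0.90) in all 8. Aspartame 2 fell within the range of water here, and with the GC and length trend removed the difference was -0.18 (adjusted p = 0.11). *Hsf1* itself differed by 0.34 (adjusted p = 0.13). Over all 77 tested partner genes, 2 rose (*Bag6* and *Cryab*) and 4 fell (*Hsbp1*, *Xbp1*, *Bag1* and *Vbp1*), or 7.79%, against the 8.83% of all genes.

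Differences were also set beside the GC content of the transcripts. The 19 genes with a positive difference had a median GC content of 50.9% and the 47 with a negative one 45.9%. The median difference was -0.13 in the 22 genes of lowest GC content, -0.069 in the middle 22 and 0.021 in the 22 of highest GC content. Spearman's rho was 0.30 over the 66 genes, against 0.52 over 12778 genes tested. Genes are not independent replicates and share their libraries, so these values are descriptions. *Tcp1* and *Dnajc19* are among the genes poorest in GC (41.1% and 40.3%), whereas *Dnajb11* (50.5%) and *Dnajb1* (52.7%) are not. The GC gap of the libraries, given above, was highest in aspartame 4 and aspartame 1 and lowest in aspartame 2. The removal of the trend took out GC content and length together, so the part of the gap alone in the results was not tested.

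**Figure D5:**
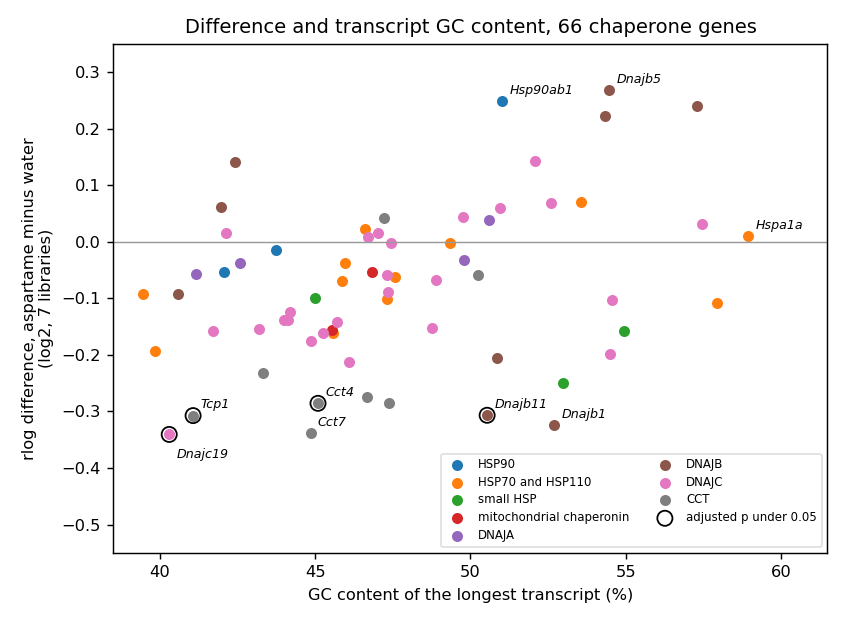
Difference in rlog, aspartame minus water, in the 7 libraries against the GC content of the longest transcript for the 66 genes, colored by class, with black rings around the 4 called genes. *Dnajc19* and *Tcp1* lie at the lower left near 40.3% and 41.1%, and *Dnajb11* lies low at 50.5%. The positive value of *Hsp90ab1* turned negative under quantile normalization and was 0.29 with the GC and length trend removed.

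Several calls were lost when 1 library was left out. The number of chaperone genes called lower was 4 in the 7 libraries, 2 without water 1 (*Cct4* and *Tcp1*), 0 without water 2, water 3, water 4 or aspartame 4, 2 without aspartame 1 (*Cct7* and *Hspb8*) and 8 without aspartame 3, where *Dnajb2* and *Dnajb5* were also called higher. The calls of *Dnajb11* and *Dnajc19* were lost without any 1 library other than aspartame 3 (adjusted p up to 0.12 and 0.14), and those of *Tcp1* and *Cct4* without any other than water 1 or aspartame 3 (adjusted p up to 0.12 and 0.13). Their differences kept the sign throughout, from -0.33 to -0.27 for *Dnajb11*, -0.36 to -0.25 for *Tcp1*, -0.32 to -0.25 for *Cct4* and -0.43 to -0.27 for *Dnajc19*, in fits that share most of their libraries. Among the partner genes, the call of *Hsbp1* was lost without water 3 or water 4 (adjusted p up to 0.065) and that of *Xbp1* without aspartame 4 or any water library but water 1 (up to 0.10). Those of *Bag6*, *Bag1* and *Cryab* held only without water 1 or aspartame 3 and were otherwise lost (adjusted p up to 0.086, 0.11 and 0.12), and that of *Vbp1* without any 1 library other than aspartame 1 (up to 0.14).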

How the data were processed

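RNA from the amygdala of 8 mice was sequenced by the authors as stranded mRNA libraries on an Illumina NovaSeq instrument, and the processing notes of the submitters name STAR, Salmon, DESeq2 and mm10. The deposited log2 values are taken as rlog from the name of the table, made by the authors from scaled counts, and whether all 8 libraries entered the transformation is not given in the sources used here. The table holds no counts, so the depth of each library is unknown. Of 24982 genes, 6350 were constant, and 12861 varied with a mean of at least 3 and went into limma (version 3.58.1, R 4.3.3) with empirical Bayes moderation, a mean-variance trend and no covariate. Adjustment for multiple tests followed Benjamini-Hochberg and took in all 12861 genes. The test was checked on simulated data with 4 water and 3 aspartame libraries. It recovered 59% of changes of 0.5 and 98% of changes of 1, and 7 of its 164 calls were false. Recovery of changes smaller than 0.5, which include all differences of the 66 chaperone genes in the 7 libraries, was not tested. A chaperone gene that was not called may therefore still differ.

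Genes named were all called members, 2 per class otherwise, a list of well-known chaperones, the extremes, and up to 3 called genes of each partner list. The other CCT subunits and *Dnajb2*, *Dnajb6*, *Dnajb12*, *Dnajc3*, *Dnajc7*, *Dnajc16*, *Dnajc25*, *Dnajc28*, *Hspa12b*, *Clpx* and *Hsf1* were chosen after their values were seen. The members and lists were chosen with earlier results of these data known. Coordinates, GC content and length are from GENCODE M21 (GRCm38) and were found for all 66 members, and promoter sequences are from RefSeq. Tables were made in Python 3.11.15 with pandas 2.3.3, numpy 2.4.6 and scipy 1.17.1, and plots with matplotlib 3.10.9. The fit was repeated on all 8 libraries, without each library in turn, unfiltered or at a minimum of 5, without the variance trend, with robust moderation, after quantile normalization or a median shift, with weighted libraries, with age as a covariate, with the replicate number as a block, and after spline trends with transcript GC and length (5 degrees of freedom each) were taken out of each library.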

Additional observations from a re-analysis of the deposited data

Results flagged for a closer look

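Among 23 named chaperone genes, each with 2 groups of 4 libraries, 2 of the 46 groups held a library that lay far from the other 3 for the size of the group. Chance alone gives this in about 1 of 20 groups. For *Dnajb1* in the aspartame group, aspartame 3 was at 6.90 and the others between 7.31 and 7.36, a gap of 0.898 of the whole range. Without aspartame 3 the difference of *Dnajb1* was -0.18, against -0.32 in the 7 libraries, and neither was called. For *Hsp90b1* in the water group, water 3 was at 11.44 and the others between 11.19 and 11.20, a gap of 0.957 of the range. *Hsp90b1* was not called with or without water 3.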

How the results depend on the processing

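The 7 libraries gave 0 chaperone genes higher and 4 lower, and 2 partner genes higher and 4 lower. With 1 library left out these counts ran from 0 to 2, 0 to 8, 0 to 7 and 0 to 6. All 8 libraries gave 0 lower, and 0 and 0 partner genes, and so did all 8 with the GC and length trend removed, and the 7 with age as a covariate. Library weights on all 8 gave 0 lower and 1 and 1 partner genes. Removal of the GC and length trend from the 7 gave 0 lower and 1 and 0 partner genes. The cause of these changes was not tested. Without the filter, with a minimum of 5, without the variance trend, and with robust moderation, a median shift or quantile normalization, the lower count was 3 to 5, and the call of *Dnajc19* was lost without the filter and under quantile normalization. The sources used here name no pairing of aspartame and water animals by replicate number. Same-numbered libraries deviated together at r = 0.53, 0.15, 0.061 and -0.099 for numbers 1 to 4, and only aspartame 1 was closest to its own number. Such correlations cannot decide whether the animals were paired. With the number as a block, all 8 libraries gave 0 lower and 0 and 0 partner genes, with or without the trend removed, and 6 libraries (without aspartame 2 and water 2) gave 5 lower and 5 and 3 partner genes. Over the 23 chaperone and 6 partner genes set by the naming rule, taken 1 by 1 under each alternative, 429 values kept direction and side of the threshold, 122 lost a call, 2 gained one (*Hspb8* without aspartame 1 and *Dnajb5* without aspartame 3), and 54 changed sign without a call in either fit. Chaperone genes outside that rule also gained calls: *Cct7* without aspartame 1, *Cct6a*, *Cct8*, *Dnajb2*, *Dnajb6* and *Dnajc28* without aspartame 3, *Cct6a* and *Cct8* under quantile normalization, and *Cct6a* and *Cct7* with the block on 6 libraries, where *Dnajc19* lost its call. The largest difference among the chaperone genes was 0.34 in size, with 3 and 4 animals a group, and what the unknown depth limits cannot be given.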
